A study of Rattus norvegicus with 8 samples.

Results

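The 9 genes described here are transcription factors and RNA-binding proteins of pluripotent cells and of the early germline. They were taken by name (Pou5f1, Utf1, Lin28a, Lin28b, Myc, Mycn, Klf4, Tfap2c and Prdm1) as 9 of the 24059 genes in the deposited table. The rule uses no measured value, but the list was drawn up with earlier results of these data known. GFP-positive germ cells were isolated from testes of prepubertal rats, transgenic Sprague-Dawley (GCS-EGFP), in which a reporter marks germ cells, and their polyA RNA was sequenced. All 8 animals carried the transgene. The 4 control rats (numbers 1, 4, 5 and 9) received vehicle and the 4 treated rats (numbers 2, 3, 6 and 8) received doxorubicin at 5 mg/kg, an anthracycline that traps topoisomerase II on DNA, on postnatal day 6, and the cells were taken 24 h later. Each library is labelled as 1 rat, and the labels also carry the entry SSC under cell line, although the cells came directly from animals. The question put to the data is whether these factors differed between treated and control animals. Nothing in the labels says more about how the samples were separated than 1 rat per library, so p-values measure the spread between these animals.

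Pou5f1 encodes OCT4, the POU-domain factor that holds embryonic cells in the pluripotent state, and Utf1 is a chromatin protein whose gene OCT4 activates. Both stay on in primordial germ cells and in the undifferentiated spermatogonia of the young testis. LIN28A and LIN28B are RNA-binding proteins that block the maturation of let-7 microRNAs. MYC and its relative MYCN are growth-promoting factors that bind DNA together with MAX, and KLF4 is a zinc-finger factor that can reprogram somatic cells together with OCT4, SOX2 and MYC. PRDM1 (BLIMP1) and TFAP2C (AP-2gamma) specify primordial germ cells in the embryo, where PRDM1 represses the somatic programme.

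The let-7 RNAs are shown because LIN28A and LIN28B act on them, and Lin28a was the one member whose groups did not overlap. The mature let-7 RNAs themselves were not measured here. In the RefSeq table of GRCr8, 9 rat microRNAs share the seed of the family, which is bases 2 to 8 of the mature RNA and is given in capitals in these 5 examples.
rno-let-7a-5p: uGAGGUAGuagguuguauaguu
rno-let-7c-5p: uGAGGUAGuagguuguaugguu
rno-let-7e-5p: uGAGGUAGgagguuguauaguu
rno-let-7i-5p: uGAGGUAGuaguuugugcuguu
rno-miR-98-5p: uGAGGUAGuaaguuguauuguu
The zinc knuckles of LIN28 proteins recognise GGAG in the loop of the precursor. Between the mature arms, 8 of the 10 hairpins with both arms in the table hold GGAG, given in capitals in the first pair below, and the hairpin of Mirlet7c2 is among those that do not.
Mirlet7e hairpin, GRCr8 chr1:67350229-67350321, plus strand: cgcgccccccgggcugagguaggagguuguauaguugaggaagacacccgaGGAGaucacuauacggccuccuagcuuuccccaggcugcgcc
Mirlet7i hairpin, GRCr8 chr7:60527877-60527961, minus strand: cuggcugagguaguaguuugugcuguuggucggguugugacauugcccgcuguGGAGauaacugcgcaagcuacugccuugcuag
Mirlet7c2 hairpin, GRCr8 chr7:118683623-118683717, plus strand: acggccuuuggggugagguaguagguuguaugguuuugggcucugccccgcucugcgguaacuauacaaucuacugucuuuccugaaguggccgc

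The shallowest library (control rat 9) held 41253848 estimated counts and the deepest (doxorubicin rat 2) 58871101, so that 1 CPM (counts per 1000000, TMM-scaled) stood for 41.7 to 57.8 counts. Over all genes, 18 passed as higher and 1 as lower after doxorubicin (adjusted p below 0.05 in the quasi-likelihood test of edgeR), which is 0.112% of the 16976 genes tested. Eda2r, Ccng1 and Cdkn1a, known as p53 targets, were named as a check that the drug acted. Members and lists were chosen with earlier results of these data known, so these genes are not an independent check. Eda2r stood at 1.51 to 2.13 CPM in controls and 9.11 to 16.1 CPM in treated rats (edgeR adjusted p = 9.63e-05), and Ccng1 at 20.5 to 24.5 and 102 to 212 CPM (edgeR adjusted p = 0.0411). Cdkn1a stood at 5.37 to 6.14 and 15.0 to 36.0 CPM without passing in edgeR (adjusted p = 0.107), while it passed with DESeq2 (adjusted p = 6.44e-06). With 1 library left out, Eda2r passed in 8 of 8 fits, whereas Ccng1 passed in 2 of 8 (without doxorubicin rat 2 or 3, edgeR adjusted p up to 0.213 in the others) and Cdkn1a in 1 of 8 (without doxorubicin rat 2). The count of 18 higher genes was 59 without doxorubicin rat 2, 10 without control rat 1 or doxorubicin rat 6, 3 without control rat 9 and 1 where control rat 4, control rat 5 or doxorubicin rat 8 was left out. The 1 lower gene became 3 without doxorubicin rat 2 and 0 without control rat 5, control rat 9 or doxorubicin rat 8.

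None of the members passed the test. Of the 9, 8 had enough counts to be tested with edgeR, and 0 of these passed (0.112% of its 16976 genes did). DESeq2 tested all 9 members, Myc included, and 0 passed (0.959% of its 17718 genes did). In edgeR the log2 fold changes of the 8 ran from -0.20 for Lin28a to 0.39 for Prdm1. Of these, 3 were positive and 5 negative, with a median of -0.061 against -0.0047 over all genes tested. At an unadjusted edgeR p below 0.05 stood 1 member, Lin28a, lower (2.56% of all genes were lower at that level), and 0 members were higher (4.19% of all genes were). Lin28a was also the only member whose groups did not overlap: 1.95% of all genes lay wholly below the controls after doxorubicin and 2.77% wholly above. The plot of log2 fold changes shows how narrow most of the intervals were. For 5 of the 8 genes (Utf1, Lin28a, Lin28b, Mycn and Klf4) the 95% interval lay within -0.35 and 0.16. In such bulk samples, fewer cells of a type and less RNA per cell cannot be told apart.

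**Figure D1:**
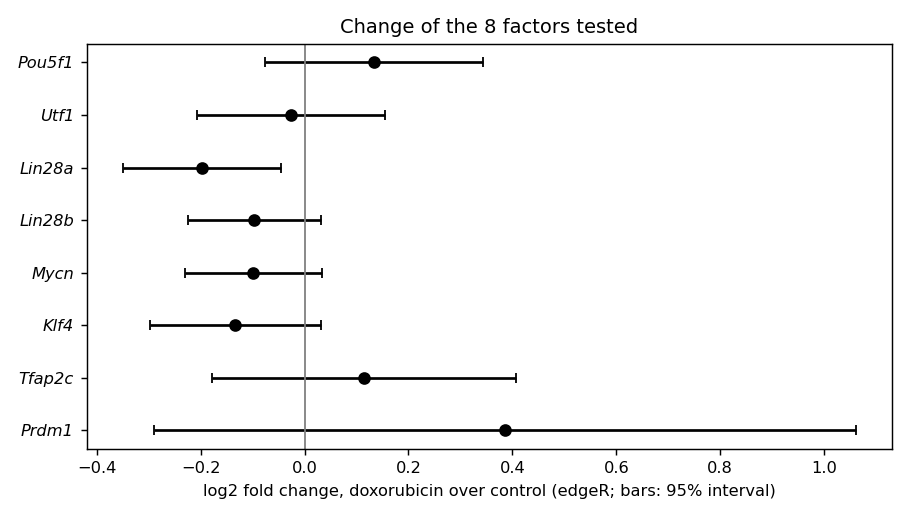
Log2 fold change of doxorubicin over control (horizontal axis, edgeR) for the 8 members tested, with points for the estimate and bars for the 95% interval. The interval of Lin28a alone leaves out 0 (-0.35 to -0.05), though its adjusted p was 0.517, and that of Prdm1 is the widest (-0.29 to 1.06).

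CPM values are not divided by transcript length, so levels are compared between rats and not between genes. Pou5f1 (ENSRNOG00000046487.3) was well above the counting floor in every rat, with 1278 to 2584 counts per library. Its level was 39.3, 33.6, 33.8 and 30.6 CPM in control rats 1, 4, 5 and 9, and 44.7, 35.8, 33.4 and 36.7 CPM in doxorubicin rats 2, 3, 6 and 8. The groups overlapped, with the highest value in doxorubicin rat 2 and the lowest in control rat 9. The mean was 34.3 ± 3.61 CPM in controls and 37.7 ± 4.91 CPM in treated rats (SD, n = 4). On the log2 scale the difference was 0.13 ± 0.10 (SE), with a 95% interval from -0.08 to 0.34 and an edgeR adjusted p of 0.888. Without doxorubicin rat 2 the log2 fold change was 0.04. In 5 of 8 libraries the estimated count of Pou5f1 was not whole, as happens where reads are divided between genes of like sequence, and its level is uncertain to that extent.

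Utf1 (ENSRNOG00000050207.2), the chromatin factor downstream of OCT4, measured 34.4, 27.8, 28.9 and 26.4 CPM in control rats 1, 4, 5 and 9. In doxorubicin rats 2, 3, 6 and 8 it measured 30.8, 27.0, 26.8 and 30.8 CPM. All treated values lay inside the range of the controls, where rat 1 was the highest. The log2 fold change was -0.026 ± 0.083 (edgeR adjusted p = 0.983), with a 95% interval from -0.21 to 0.16. In fold terms the interval ran from 0.866 to 1.11.

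The plot of abundance by library shows all 9 genes on axes that start at 0. Control rat 1 and doxorubicin rat 2, the 2 deepest libraries, had the highest Pou5f1 level of their groups, and control rat 9 and doxorubicin rat 6, the 2 shallowest, the lowest. Pou5f1 was the 1 member with this order over all 8 rats (254 of the 16976 genes tested had it, and 262 had the reverse order). The order was looked for after the values were seen, and the part of depth in the level of Pou5f1 was not tested.

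**Figure D2:**
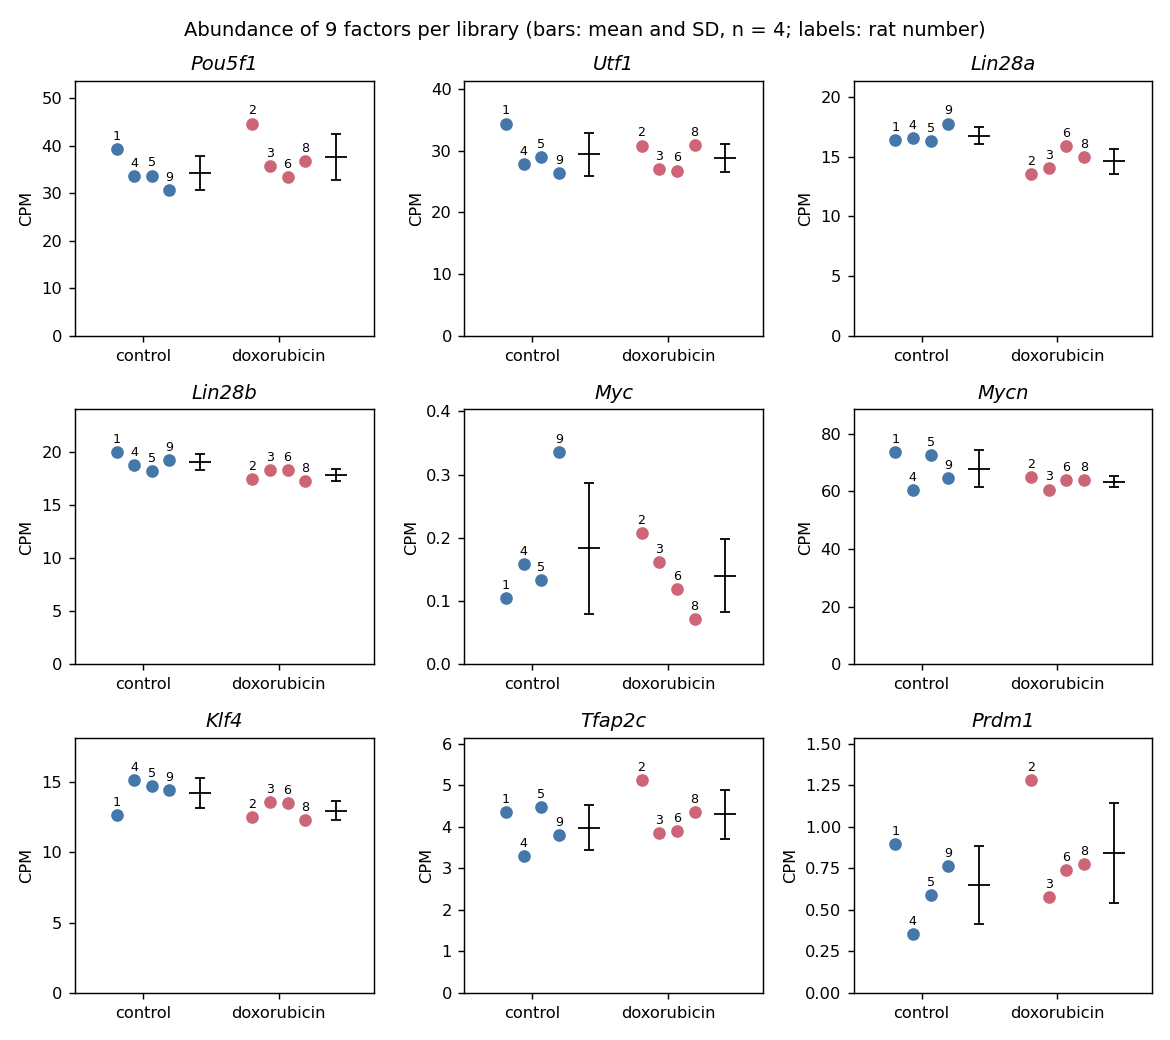
Abundance in CPM (vertical axes, from 0) of the 9 genes in each control and doxorubicin library, with rat numbers beside the points and the mean and SD (n = 4) to their right. The treated points of Lin28a (13.6 to 15.9 CPM) sit below all of its control points (16.3 to 17.8 CPM), while the groups overlap for the other 8 genes.

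Lin28a (ENSRNOG00000069459.1) was the member with the smallest p. Its level was 16.4, 16.6, 16.3 and 17.8 CPM in control rats 1, 4, 5 and 9. It was 13.6, 14.0, 15.9 and 15.0 CPM in doxorubicin rats 2, 3, 6 and 8. Every treated rat lay below every control, by the least in rat 6. The mean was 16.8 ± 0.68 CPM in controls and 14.6 ± 1.05 CPM after doxorubicin, 87.2% of the control level. The log2 fold change was -0.20 ± 0.07. Its unadjusted p in the edgeR fit across all genes was 0.0147, at rank 481, and the adjusted p was 0.517 (0.300 with DESeq2). A two-sided exact permutation test of its CPM gave p = 0.0286, the smallest that 4 against 4 rats allow. Full separation of the groups always gives this value, so it restates the separation above. It is not adjusted for the choice of Lin28a among the 9 members. The smallest adjusted p over all 16 alternatives was 0.300. Its estimated counts were not whole in 8 of 8 libraries, so the same limit holds.

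Lin28b (ENSRNOG00000025938.8), whose counts were whole in every library, measured 20.02, 18.8, 18.3 and 19.3 CPM in control rats 1, 4, 5 and 9. After doxorubicin it measured 17.5, 18.4, 18.3 and 17.2 CPM in rats 2, 3, 6 and 8. The groups met at 18.3 CPM, and the values spread little, with the highest of the 8 rats 1.16 times the lowest. Its log2 fold change was -0.097 ± 0.059 (edgeR adjusted p = 0.842, 95% interval -0.22 to 0.03). Within each library, Lin28a took 45.0% to 48.0% of the counts of the pair in controls and 43.4% to 46.5% after doxorubicin. The mean share was 46.8% ± 1.24 and 45.0% ± 1.73 (two-sided exact permutation p = 0.143, or 0.286 adjusted over both shares tested), so the balance of the paralogs overlapped between the groups.

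The start regions of the pair are given because both genes had negative log2 fold changes. So did 5 of the 8 tested members and 52.2% of all genes tested, and the interval of Lin28b covered 0. Each run covers 250 bases before and 50 after the annotated start, from RefSeq, and capitals mark the GC box GGGCGG on either strand.
Lin28a, GRCr8 chr5:151527835-151528134, minus strand: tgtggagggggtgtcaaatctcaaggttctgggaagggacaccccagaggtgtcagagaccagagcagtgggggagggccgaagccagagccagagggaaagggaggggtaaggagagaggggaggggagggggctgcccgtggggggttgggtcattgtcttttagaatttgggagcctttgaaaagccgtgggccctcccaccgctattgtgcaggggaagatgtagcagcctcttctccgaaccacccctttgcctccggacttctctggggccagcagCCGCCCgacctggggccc
Lin28b, GRCr8 chr20:50532452-50532751, minus strand: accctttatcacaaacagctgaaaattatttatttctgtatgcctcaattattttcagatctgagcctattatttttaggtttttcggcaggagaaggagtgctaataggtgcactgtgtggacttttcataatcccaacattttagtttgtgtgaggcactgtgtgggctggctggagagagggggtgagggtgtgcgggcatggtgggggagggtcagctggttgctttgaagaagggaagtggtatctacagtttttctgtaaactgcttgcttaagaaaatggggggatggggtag
These windows are unlike: that of Lin28a is 62.7% G and C with 8 CG pairs, and that of Lin28b 45.0% with 2. The GC box was found in 2 of the 5 members with a window in the table, Lin28a and Utf1, and in 33.1% of 33469 windows of the same length. The E-box CACGTG that MYC and MAX bind and the octamer ATGCAAAT that OCT4 binds were found in 0 of the 5 (on either strand), and in 6.42% and 1.78% of all windows. In the Utf1 window, 2 of the 4 GC boxes share a base.

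Of the MYC genes, Mycn was well above the counting floor in every rat and Myc close to it. Mycn (ENSRNOG00000051372.2) measured 73.6, 60.4, 72.6 and 64.4 CPM in control rats 1, 4, 5 and 9. In treated rats 2, 3, 6 and 8 it measured 64.9, 60.6, 63.9 and 63.8 CPM. The treated values all lay inside the control range, and their SD was 1.86 CPM against 6.42 CPM in controls, where rats 1 and 5 were high. The log2 fold change was -0.10 ± 0.06 (edgeR adjusted p = 0.842), with a 95% interval from -0.23 to 0.03. Myc (ENSRNOG00000004500.6) had 6, 9, 7 and 14 counts in control rats 1, 4, 5 and 9 and 12, 9, 5 and 4 in doxorubicin rats 2, 3, 6 and 8, or 0.072 to 0.336 CPM. On the same scale 3 counts correspond to 0.0519 to 0.0719 CPM. Myc did not pass the filter on low counts. The totals were 36 counts in controls and 30 after doxorubicin, and an exact permutation test of its CPM gave p = 0.600, so no difference was detectable at this depth. Without the filter, its log2 fold change was -0.31 ± 0.48 (edgeR adjusted p = 0.957). Myc made up 0.277% ± 0.169 of the counts of Myc and Mycn in controls and 0.221% ± 0.090 after doxorubicin (exact permutation p = 0.686), a share not corrected for transcript length.

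Klf4 (ENSRNOG00000016299.4) measured 12.7, 15.1, 14.7 and 14.4 CPM in control rats 1, 4, 5 and 9. Its values after doxorubicin were 12.5, 13.6, 13.5 and 12.3 CPM in rats 2, 3, 6 and 8. Control rat 1 lay among the treated rats, and the other controls above all of them. The log2 fold change was -0.13 ± 0.08 (edgeR adjusted p = 0.815, 95% interval -0.30 to 0.03). Without control rat 1 it was -0.19 (edgeR adjusted p = 0.471).

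The germ cell specifiers were measured at low counts. Tfap2c (ENSRNOG00000005246.7) had 159 to 296 counts per library and measured 4.36, 3.29, 4.47 and 3.81 CPM in control rats 1, 4, 5 and 9. In doxorubicin rats 2, 3, 6 and 8 it measured 5.12, 3.84, 3.91 and 4.36 CPM. Rat 2 was the highest, and the other treated rats lay inside the control range. The log2 fold change was 0.11 ± 0.13 (edgeR adjusted p = 0.952, 95% interval -0.18 to 0.41). Leaving out doxorubicin rat 2 gave 0.019, and leaving out control rat 4 gave 0.035.

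Prdm1 (ENSRNOG00000000323.8) had 20 to 74 counts per library. It measured 0.897, 0.354, 0.588 and 0.767 CPM in control rats 1, 4, 5 and 9, and 1.28, 0.577, 0.739 and 0.778 CPM in doxorubicin rats 2, 3, 6 and 8. Rat 2 stood above the range of the other 7 rats, and the groups otherwise overlapped. The log2 fold change was 0.39 ± 0.31 (edgeR adjusted p = 0.912). Its 95% interval, from -0.29 to 1.06, covers folds from 0.818 to 2.09 and is the widest of the members. Without doxorubicin rat 2 the log2 fold change was 0.10, and without control rat 4 it was 0.18. PRDM1 is also made by plasma cells and some macrophages. The summed abundance of the 12 macrophage and leukocyte markers, of which 9 were under 1 CPM, was highest in rat 2 as well, at 10.97 CPM against 8.97 to 9.51 CPM in the other treated rats and 7.46 to 9.29 CPM in controls, and 7 of 7 tested markers had positive log2 fold changes (median 0.21) with 0 past the threshold in edgeR or DESeq2 and 0 at an unadjusted p below 0.05. The part of such cells in the level of Prdm1 was not tested.

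Among libraries, control rat 1 was the highest of its group for 5 of 9 members (Pou5f1, Utf1, Lin28b, Mycn and Prdm1) and doxorubicin rat 2 for 5 of 9 (Pou5f1, Myc, Mycn, Tfap2c and Prdm1). Over all genes, control rat 1 and doxorubicin rat 2 also differed most from the other libraries. The share of all genes highest in these rats was not counted, so this is not read as a trait of the members. The heat map of deviations from the control mean shows rat 2 as the highest for Prdm1, Pou5f1 and Tfap2c and the lowest for Lin28a. On the log2 scale it stood at 1.01 for Prdm1, 0.39 for Pou5f1, 0.37 for Tfap2c and -0.30 for Lin28a. The same rat had the highest Cdkn1a level (36.0 CPM, against 15.0 to 16.9 in the other treated rats). Doxorubicin rat 8 stood lowest of all 8 rats for Lin28b, Klf4 and Myc.

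**Figure D3:**
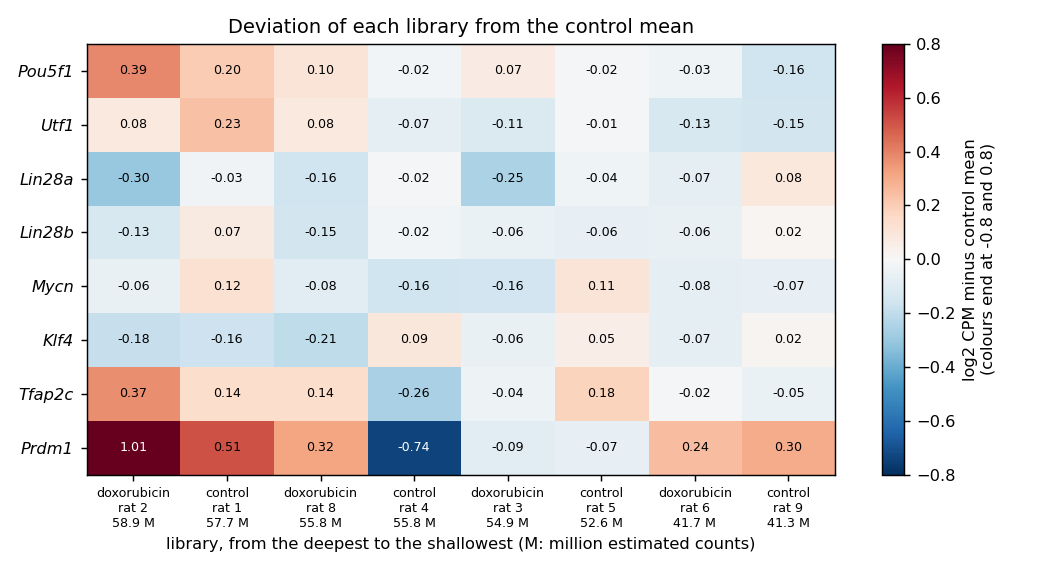
Log2 CPM of each tested member minus its control mean, by library (columns, from the deepest to the shallowest) and gene (rows), with colours that end at -0.8 and 0.8. Lin28a (-0.30 to -0.07), Lin28b, Mycn and Klf4 are negative in all 4 treated libraries, and doxorubicin rat 2 holds the largest value, 1.01 for Prdm1. Only for Lin28a do the treated values lie wholly below the controls, and for Mycn control rat 4 is lower than every treated rat. The share of all genes negative in all 4 treated libraries was not counted.

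Other genes of the pluripotency network gave no calls. Of 29 genes in this list 24 were tested, 8 positive and 16 negative with a median log2 fold change of -0.027. With edgeR or DESeq2 0 passed. At an unadjusted edgeR p below 0.05, 0 were higher and 1 was lower (4.19% and 2.56% of all genes tested). Nanog, a core pluripotency factor, stood at 3.27 ± 0.10 CPM in controls and 3.30 ± 0.62 CPM in treated rats (log2 fold change 0.0050 ± 0.14). Sox2, the partner of OCT4, was near the floor with 6 to 16 counts per library (0.165 ± 0.050 and 0.244 ± 0.050 CPM, edgeR adjusted p = 0.842). Sall4, a zinc-finger factor kept in spermatogonia, measured 186.5 ± 13.8 and 183.1 ± 9.68 CPM. Il6st, the gp130 receptor subunit that relays LIF signals, had the smallest p of the list (122.4 ± 4.14 and 113.2 ± 4.45 CPM, edgeR adjusted p = 0.532), followed by Tbx3 (26.4 ± 4.65 and 22.9 ± 1.57 CPM, edgeR adjusted p = 0.797). Klf5, which acts beside Klf4 in embryonic stem cells, had a log2 fold change of -0.12 ± 0.08, and Klf2 one of -0.10 ± 0.12. In the KLF family as a whole, 6 of 15 tested genes were positive and 9 negative with 0 past the threshold (0 at an unadjusted edgeR p below 0.05, and 0 with DESeq2). Klf6 and Klf7 had the smallest p of that family (log2 fold changes 0.19 ± 0.09 and 0.09 ± 0.06, edgeR adjusted p = 0.758 and 0.856).

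Of the 33 genes of primordial germ cells and the early germline, 32 were tested. They divided into 17 positive and 15 negative with a median of 0.0037, and 0 passed (0 at an unadjusted edgeR p below 0.05, and 0 with DESeq2). Prdm14, the partner of PRDM1 and TFAP2C in specification, stood at 5.29 ± 1.54 CPM in controls and 4.44 ± 0.64 CPM in treated rats. Dppa3, an early germ cell marker also called Stella, measured 0.558 ± 0.170 and 0.665 ± 0.179 CPM. Prdm14's log2 fold change was -0.26, and -0.042 without control rat 1. The RNA-binding protein genes Nanos3 and Dnd1, which keep germ cells alive, had log2 fold changes of 0.06 ± 0.12 and -0.0039 ± 0.085. Tfap2a, a paralog of Tfap2c, had one of -0.15 ± 0.14, and Prmt5, the arginine methyltransferase that works with PRDM1, one of -0.048 ± 0.044. The smallest p in this list belonged to Dazl (751.6 ± 25.4 and 784.4 ± 12.6 CPM, edgeR adjusted p = 0.796) and to Cbfa2t2, a co-repressor partner of PRDM14 (97.0 ± 3.75 and 102.2 ± 4.23 CPM, edgeR adjusted p = 0.803).

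In the LIN28 and let-7 list, 24 of 25 genes were tested and 0 passed with edgeR or DESeq2. At an unadjusted edgeR p below 0.05, 1 gene was higher and 4 were lower, and 3 genes lay wholly below the controls. Of all genes tested, 4.19% were higher and 2.56% lower at that level, and 1.95% lay wholly below the controls. Hmga2, a chromatin protein and a classical let-7 target, measured 1.59 ± 0.04 CPM in controls and 1.13 ± 0.11 CPM in treated rats, and its groups did not overlap (log2 fold change -0.50 ± 0.15, edgeR adjusted p = 0.329). Tent2, a poly(A) polymerase, had one of -0.13 ± 0.04 (edgeR adjusted p = 0.410). Dicer1, which cuts microRNA precursors and was named after its values were seen, had one of -0.13 ± 0.05 (edgeR adjusted p = 0.490). The uridylating enzyme Tut4 (-0.024 ± 0.038), the exonuclease Dis3l2 that degrades uridylated let-7 precursors (0.08 ± 0.07), and the let-7 targets Igf2bp1 (-0.034 ± 0.048) and Trim71 (0.0039 ± 0.093) had log2 fold changes near 0. Igf2bp3, a paralog of Igf2bp1 named after its values were seen, was the 1 gene higher at that level (91.2 and 99.3 CPM, log2 fold change 0.12 ± 0.05, edgeR adjusted p = 0.651).

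Among MYC network partners, 8 of 25 tested genes were positive and 17 negative, with a median of -0.039 and 0 past the threshold with edgeR or DESeq2 (0 higher and 4 lower at an unadjusted edgeR p below 0.05). Mycl, the third MYC paralog, stood at 6.48 ± 0.52 CPM in controls and 5.60 ± 0.35 CPM in treated rats, without overlap between the groups (log2 fold change -0.21 ± 0.10, edgeR adjusted p = 0.734). In all, 4 partners lay wholly below the controls, Mycl, Pim1 and Usp28 among them. Of all genes tested, 1.95% did so, and 2.56% were lower at an unadjusted edgeR p below 0.05. Max, the partner of all MYC proteins, had a log2 fold change of -0.033 ± 0.055, and Mxd1, an antagonist that competes for MAX, one of -0.028 ± 0.069. Pim1, a kinase, and Usp28, a deubiquitinase of MYC, had the smallest p (log2 fold changes -0.16 ± 0.07 and -0.07 ± 0.03, edgeR adjusted p = 0.656 and 0.708).

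Of 35 MYC target genes, 8 were positive and 27 negative, with a median of -0.025 and 0 past the threshold with edgeR or DESeq2. At an unadjusted edgeR p below 0.05, 1 was higher and 2 were lower (4.19% and 2.56% of all genes tested). Negative values made up 77.1% of these targets and 52.2% of all genes tested. In all, 3 targets lay wholly below the controls, Srm among them, and 1, Cad, lay wholly above. Of all genes tested, 1.95% lay wholly below and 2.77% wholly above. Srm, spermidine synthase, had the smallest p, with 39.0 ± 1.55 CPM in controls and 34.2 ± 1.86 CPM after doxorubicin (log2 fold change -0.19 ± 0.05, edgeR adjusted p = 0.294). Cad, which starts pyrimidine synthesis, was 0.09 ± 0.03 higher on the log2 scale without passing (edgeR adjusted p = 0.559), and Odc1, the ornithine decarboxylase that supplies Srm's pathway, one of 0.036 ± 0.072.

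**Figure D4:**
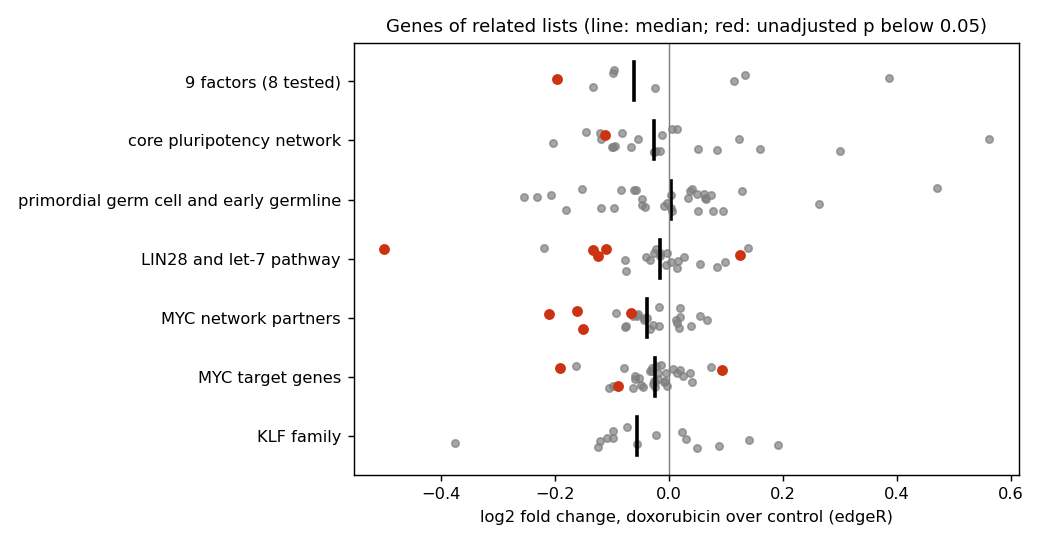
Log2 fold change of doxorubicin over control (horizontal axis, edgeR) for the members and for the genes of 6 related lists, 1 point per gene, with a line at each median and red for an unadjusted p below 0.05. The medians lie between -0.061 and 0.0037, and the farthest red point is Hmga2 at -0.50.

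The cells carried the transcripts of their label. The 17 matched pan-germ cell markers summed to 3798 ± 37.1 CPM in controls and 3848 ± 52.1 CPM after doxorubicin, none was under 1 CPM, and Ddx4, Dazl and Zbtb16 had log2 fold changes of 0.048, 0.06 and -0.08. Tex101, a surface protein of germ cells, was the 1 marker of the list at an unadjusted edgeR p below 0.05 (149.6 and 140.2 CPM, log2 fold change -0.09 ± 0.04, edgeR adjusted p = 0.635). No marker of another cell type was at 0 in all libraries. The Sertoli markers summed to 410.8 to 434.4 CPM in controls and 398.7 to 424.5 CPM in treated rats, of which Dmrt1, also a spermatogonial gene, made up 63.4%. The genes that lead these sums (Dmrt1, Dlk1, Pecam1 and Slc4a1) were looked up after the values were seen. Leydig markers summed to 69.8 to 84.1 and 70.2 to 85.1 CPM, 87.5% of it Dlk1, with 7 of 10 under 1 CPM. Endothelial markers summed to 89.1 to 106.8 and 100.3 to 113.4 CPM, 71.8% of it Pecam1, which germ cells also express, and peritubular and stromal markers to 78.0 to 95.5 and 70.5 to 93.0 CPM. In that last list 3 of 11 tested genes were positive and 8 negative (median log2 fold change -0.26). At an unadjusted edgeR p below 0.05, 1 was higher and 2 were lower (4.19% and 2.56% of all genes tested). The list had 2 genes wholly below the controls (1.95% of all genes tested) and 0 past the threshold in edgeR or DESeq2. Its smallest p belonged to Col1a2, a collagen chain (15.5 ± 1.13 and 12.9 ± 1.42 CPM, edgeR adjusted p = 0.459), and to Myh11, smooth muscle myosin, in the other direction (5.09 ± 0.93 and 8.75 ± 3.70 CPM, edgeR adjusted p = 0.561, log2 fold change 0.79, or 0.45 without doxorubicin rat 2). In the other marker lists the smallest p belonged to Nr5a1 and Ctsl (Sertoli), Nr5a1 and Hsd17b3 (Leydig), Pecam1 and Flt1 (endothelial) and Csf1r and Cd14 (macrophage), all with edgeR adjusted p of at least 0.805. The erythroid sum alone did not overlap, with 6.93 to 8.62 CPM in controls and 8.84 to 14.5 CPM after doxorubicin, and Slc4a1 made up 58.0% of it. Of the 5 erythroid markers tested, 2 were positive and 3 negative (median log2 fold change -0.55). The globin genes Hbb (1.55 and 0.688 CPM, log2 fold change -1.17 ± 0.29, edgeR adjusted p = 0.192) and Hba-a1 (2.06 and 1.121 CPM, log2 fold change -0.88 ± 0.22, edgeR adjusted p = 0.206), named after their values were seen, lay wholly below the controls, opposite to Slc4a1. Over these 6 lists the exact permutation p was 0.0286 for the erythroid sum (0.171 adjusted) and at least 0.171 for the others (0.514 adjusted). Slc4a1, the red cell anion exchanger, was the 1 marker past the threshold in edgeR (3.09 ± 0.35 and 7.48 ± 2.21 CPM, edgeR adjusted p = 0.0339), and passed in 3 of 8 fits with 1 library left out (without doxorubicin rat 2, 3 or 6); DESeq2 called it higher and both globins lower. Without doxorubicin rat 2 the difference in the erythroid sum was 1.17 CPM in place of 2.54 CPM. Klf4 and Myc are also made by stromal and endothelial cells, and the part of such cells in their levels was not tested.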

How the data were processed

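RNA of 8 libraries was extracted with the Arcturus PicoPure kit, and polyA-enriched libraries were made from RNA with a RIN above 8, per the labels' protocols. Per the submitters' processing notes, kallisto 0.48.0 and featureCounts were used with the build rn6, and fastp 0.23.2 and Trimmomatic are also named, but which tool made the table, its strand setting and how it treated multi-mapping reads are not stated there. The authors deposited estimated counts per gene, not normalized, which were rounded to whole numbers here (32.5% to 33.6% of the values in a library were more than 1e-06 from a whole number).

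The main test was the quasi-likelihood F test of edgeR 4.0.16 (R 4.3.3, filterByExpr, TMM factors, robust fit, no covariate), with Benjamini-Hochberg adjustment over 16976 genes and a threshold of 0.05. CPM values are TMM-scaled and carry the SD over 4 rats, log2 fold changes carry their SE, and intervals cover 95%. Exact permutation tests ran over the 70 arrangements of the libraries. The procedure was tested on simulated data, where the changes put in were larger than the log2 fold change of any tested member. Alternatives were DESeq2 1.42.0, limma-voom (limma 3.58.1), RLE factors, library size only, other filters, a fit that was not robust, unrounded counts, and each library left out in turn.

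All 9 members were found by symbol, and none had a repeated row. Of 247 entries in 13 fixed gene lists, 1 was matched through another symbol and 5 were not matched. The members and lists were chosen with earlier results of these data known. Besides the members, the genes to name were 27 set by name and, from each list, up to 4 past the threshold or else the 2 with the smallest p. Genes named beyond that rule (Dicer1, Igf2bp3, Hbb, Hba-a1, Dmrt1 and Dlk1) were chosen after their values were seen. Sequences are from RefSeq tables of GRCr8, which served for sequences and names only. Every pair of libraries differed by more than sampling noise (the smallest chi-square was 6.22 times its degrees of freedom). This ratio was 15.8 to 30.8 in pairs with doxorubicin rat 2 and 15.8 to 20.9 in pairs with control rat 1. In pairs without these rats it was at most 14.3.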

Additional observations from a re-analysis of the deposited data

Results flagged for a closer look

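A single library stood far from its group in 10 of the 130 cases looked at (each 1 quantity in 4 libraries). For normally distributed values chance alone gives about 1 in 20, or 6.5. The cases are not independent, since marker sums include their leading genes, and some genes were picked by their p. The count of 10 was therefore not tested against 6.5. Among the members, a library stood apart only for Lin28a, at 17.8 CPM in control rat 9 against 16.3 to 16.6 CPM in the other controls. Doxorubicin rat 2 stood apart with Cdkn1a at 36.0 CPM, Slc4a1 at 10.8 CPM and the erythroid markers at a sum of 14.5 CPM, all above the other treated rats, and with Zbtb16 at 88.2 CPM and Il6st at 106.7 CPM, both below them. Doxorubicin rat 8 stood above the other treated rats with Sall4 at 197.6 CPM and Ddx4 at 398.3 CPM and below them with the Sertoli marker sum at 398.7 CPM. Tex101 was lowest in doxorubicin rat 6, at 135.0 CPM.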

How the results depend on the processing

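No member passed the threshold under any of the 16 alternatives. Utf1 changed sign when 1 library was left out, with log2 fold changes of -0.0692 to 0.0592, and the other 7 tested members kept their sign under every alternative that gave a value. Leaving out 1 library gave 0.04 to 0.21 for Pou5f1, -0.23 to -0.16 for Lin28a, -0.12 to -0.07 for Lin28b, -0.15 to -0.06 for Mycn, -0.19 to -0.10 for Klf4, 0.02 to 0.17 for Tfap2c and 0.10 to 0.60 for Prdm1. With a filter at a mean of 1 CPM, Prdm1 had no value. The 18 genes higher over all genes were 159 with DESeq2, 52 without the robust fit and 1 to 59 with 1 library left out; the 1 lower gene was 11 with DESeq2, 0 with the filter at 1 CPM and 0 to 3 with 1 library left out. Values close to 0 changed sign: Nanog (-0.0269 with limma-voom, -0.00123 with library size only, -0.0931 to 0.12 with 1 library left out), Dnd1 (0.00391 with limma-voom, 4.49e-05 with no filter, 2.21e-05 with the 1 CPM filter) and Trim71 (-0.00238 with library size only). With 1 library left out, log2 fold changes on both sides of 0 also came from Sall4 (-0.0733 to 0.0035), Nanos3 (-0.0574 to 0.14), Dnd1 (-0.0583 to 0.0745), Trim71 (-0.064 to 0.0697), Max (-0.0756 to 0.00611), Mxd1 (-0.0567 to 0.00506) and Odc1 (-0.00921 to 0.11), as did the difference in the Leydig marker sum (-4.47 to 0.58 CPM) and in the share of Myc (-0.0999 to 0.0251 percentage points). Without control rat 1, Tfap2a gave -0.065 (-0.15 with all rats) and Klf2 -0.0048 (-0.10). Without control rat 9, Tbx3 gave -0.084 (-0.20). Without doxorubicin rat 2, Klf5 gave -0.066 (-0.12) and Dppa3 0.082 (0.26). The cause was not tested. No paired analysis was possible because the rat numbers of the groups do not overlap. Counts of 4 to 14 per library limit Myc, and of 20 to 74 limit Prdm1.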

Other observations

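The members differed in how much they varied between rats. The biological coefficient of variation within groups, as edgeR estimates it with shrinkage toward other genes, was 6.22% for Lin28b, and 10.2% of the 2231 genes within 1.5-fold of its mean CPM had a smaller one. For Lin28a it was 7.22%, with 25.4% of 2141 like genes below it, and for Klf4 7.87%, with 33.3% of 2067 below it. Pou5f1 varied more than most genes of its level, at 9.61% with 91.8% of 2554 genes below it, and so did Utf1, at 8.73% with 85.4% of 2443 below it. Mycn stood at 6.58% (80.1% of 2518 below it), Tfap2c at 13.0% (58.5% of 1644 below it) and Prdm1 at 27.9% (90.7% of 1524 below it).

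Over the 8 libraries, Pou5f1, Tfap2c and Prdm1 ranged over at least 0.5 on the log2 scale. By the root mean square difference of mean-centred log2 CPM, the genes most like Pou5f1 were Cacna1a (0.035) and Ifi35 (0.037), where the spread of Pou5f1 itself was 0.16. Those most like Tfap2c were the mitochondrial Mt-nd2 (0.06) and LOC103694540 (0.07), against a spread of 0.18. Those most like Prdm1 were AC097153.2 and Slc1a5 (0.21 for both), against a spread of 0.48. These genes are the nearest of all tested genes with a symbol over only 8 libraries, and Prdm1 had 20 to 74 counts per library.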
